A study of Mus musculus with 468 samples.

Results

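Type I interferon stimulated genes are the transcripts that cells switch on when interferon alpha or beta binds its receptor. The 37 genes described here were taken by symbol from the gene table of adipose RNA sequencing in Diversity Outbred (DO) mice, 1 library per mouse, and all 37 were among the 23180 genes listed and among the 18380 that passed the filter on low counts. DO mice descend from several inbred founder strains by outcrossing, and their genotypes differ from animal to animal. Mice of both sexes were switched as juveniles to an HFHS diet, rich in fat and sugar and labelled 45 percent fat, and were harvested as adults. All mice shared this diet, no untreated group was among the libraries used here, and the labels give no sex, generation, age, fat depot or batch for a single library. Each SD is over all mice and joins animal differences with assay error. The libraries form 1 group. Mouse numbers in the labels span 21 to 560, a library number is given as well, and 5 blocks of consecutive numbers, of 93 or 94 mice each by mouse number, were used to recompute relations because no label names a batch.

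The pathway works in steps. Receptors of the cytosol and endosome detect viral or displaced nucleic acid and raise interferon alpha and beta, the ligands bind IFNAR1 and IFNAR2, and the kinases JAK1 and TYK2 then activate STAT2. With IRF9 it takes part in ISGF3, a complex that binds the interferon stimulated response element (ISRE) in the promoters of antiviral genes. Adipose tissue holds adipocytes, vessels, progenitors and immune cells, and macrophages gather in it in obesity. The questions put to the data were how far the 37 genes varied together among mice, which of them departed from the rest, and how they related to Adgre1, the gene of the macrophage surface protein F4/80, and to mouse number.

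Total expected counts per library ran from 35298813 to 137760410, with a median of 82043357. No member had a library at 0. The shallowest member, Oas3, had a median of 63.8 counts per library and a lowest value of 4, so its low end carried the most counting error. Adipocyte markers were abundant in every library, the 8 of them summing to between 11120 and 47370 CPM, which are counts scaled to a library of 1000000. Of the ligands looked for, Ifng was the one found in the table, and it did not pass the filter, with a median of 0.0381 CPM. A few libraries stood apart in the members themselves and are described before the relations that include them.

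The promoters of several members hold the ISRE as a readable word. In the RefSeq promoter windows (GRCm38.p6, from 250 bases before to 50 bases after the gene start), 27 of the 37 members had an entry. The pattern searched was GAAANNGAAA on either strand, read as TTTCNNTTTC on the other, with overlapping matches counted. It was present in 12 of these 27 members (44.4%) and in 3.44% of all 32851 windows. The 27 members had 31 windows, and a member counted when any of its windows matched, so the 2 shares differ in unit. The 12 were Isg15, Ifit1, Ifit3, Bst2, Oas1a, Oas3, Ifih1, Ddx58, Trim30a, Stat2, Rsad2 and Eif2ak2. The 6 below are shown because they had overlapping or repeated matches (Isg15, Ifit1, Ifit3, Oas1a, Bst2) or belong to the member with the highest median correlation to the rest (Stat2). Each runs 5′ to 3′ on the strand of the gene, and capitals mark the matches.
Isg15: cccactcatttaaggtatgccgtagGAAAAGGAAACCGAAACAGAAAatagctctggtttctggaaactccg
Ifit1: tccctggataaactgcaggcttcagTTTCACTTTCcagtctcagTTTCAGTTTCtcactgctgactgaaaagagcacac
Ifit3: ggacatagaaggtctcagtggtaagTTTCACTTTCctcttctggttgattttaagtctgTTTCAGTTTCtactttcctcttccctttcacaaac
Oas1a: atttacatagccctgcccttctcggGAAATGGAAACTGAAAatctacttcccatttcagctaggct
Bst2: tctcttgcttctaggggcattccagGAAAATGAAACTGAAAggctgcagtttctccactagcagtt
Stat2: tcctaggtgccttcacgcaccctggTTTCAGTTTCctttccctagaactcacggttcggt
The Isg15 stretch lies at chr4:156200850-156200921 on the minus strand, and its 3 overlapping matches span positions -78 to -57 from the gene start. The Ifit1 stretch is at chr19:34640760-34640838 on the plus strand, with 2 matches between -104 and -76, and the Ifit3 stretch at chr19:34583348-34583441 on the same strand, with 2 matches between -156 and -113. The Oas1a stretch is at chr5:120907505-120907570 (minus strand, -20 to -5), the Bst2 stretch at chr8:71537562-71537627 (minus strand, -130 to -115) and the Stat2 stretch at chr10:128270251-128270310 (plus strand, -222 to -213). The 15 members without the word, among them Irf7, Irf9, Oasl2 and Samd9l, lack these letters in this window only. The median of the median correlations with other members was 0.594 over the 12 members with a match and 0.493 over the 15 without, and the ranges overlapped (0.458 to 0.652 and 0.402 to 0.634).

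The members differed widely in level. Per kilobase of exon, the highest mean was that of Ifi27, at 152.6 ± 66.1 CPM per kb (SD over all mice), followed by Lgals3bp at 72.01 ± 27.5 and Bst2 at 19.2 ± 7.70 CPM per kb. Samd9l (11.5 CPM per kb, SD 3.095) and Ifi35 (10.6 CPM per kb, SD 1.94) came next and differed by less than their SDs. The lowest was Oas3 at 0.168 CPM per kb with an SD of 0.196. Ifi27, a small protein of the mitochondrial membrane, and Lgals3bp, a secreted galectin-3 binding protein, stood clear of the antiviral effectors.

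Not corrected for length, the 5 members with the most reads were these. Ifi27 ran from 21.7 to 605.3 CPM (mean 223.9 ± 96.97, SD), Lgals3bp from 32.9 CPM upwards (median 193.1, SD 78.3), Parp14 from 34.1 to 254.3 CPM (70.9 ± 18.9), Samd9l from 26.1 to 127.7 CPM (62.5 ± 16.8) and Sp100 from 22.9 to 111.4 CPM (50.2 ± 13.5). Each of the 5 ranges overlaps the next.

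**Figure D1:**
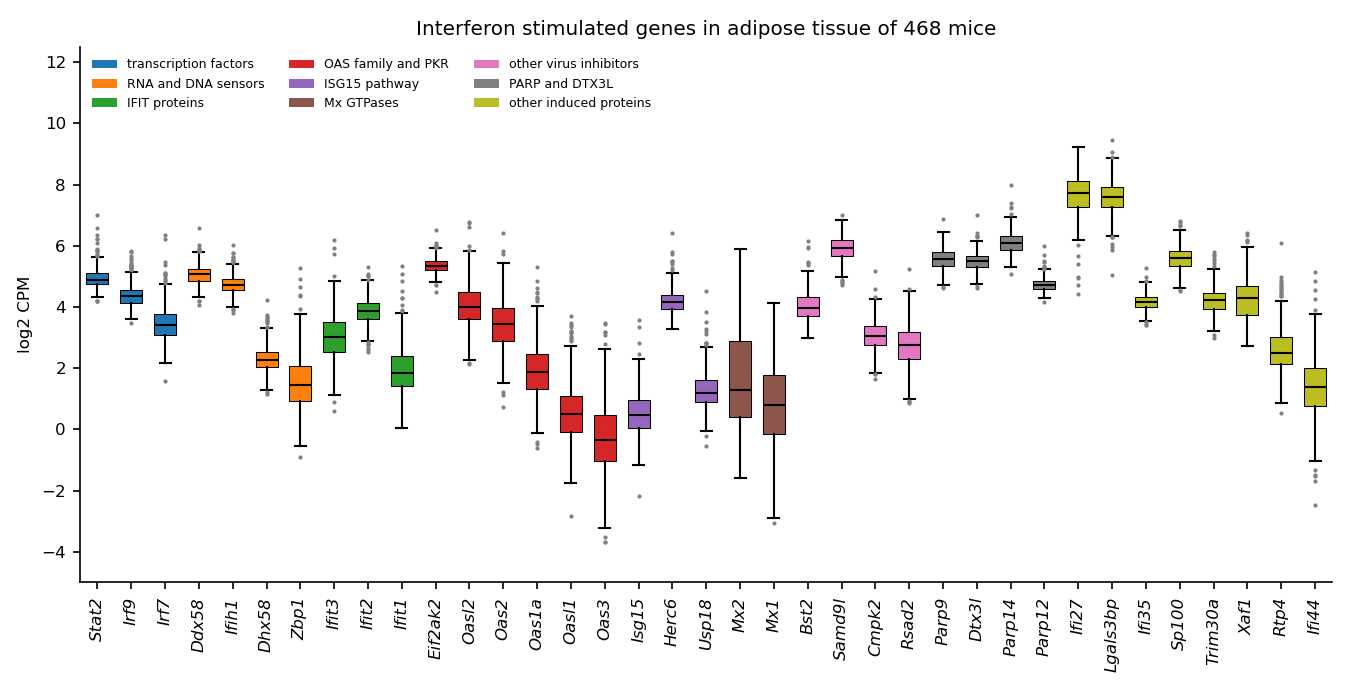
Box plots of log2 CPM over all mice for each of the 37 members, coloured by role (box: quartiles; line: median; whiskers: up to 1.5 interquartile ranges; points: mice beyond). Ifi27 and Lgals3bp lie highest, Oas3 lies lowest, and Mx1 and Mx2 have the widest boxes.

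They differed as much in how far they spread among mice. The SD of log2 CPM had a median of 0.541 over the members and 0.457 over all genes tested. The Mx GTPases, which block the nucleocapsids of RNA viruses, varied most, with SDs of 1.49 (Mx2) and 1.35 (Mx1). The synthase Oas3, which makes 2-5A to activate RNase L, followed with 1.20 and Ifi44 with 1.01. At the other end stood Parp12 (0.21), the double-stranded RNA kinase PKR, gene Eif2ak2 (0.23), and Ifi35 (0.26).

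The values by role show the same contrast. Among the transcription factors, Stat2 (chromosome 10, 128270559 to 128292849) ran from 18.2 to 127.7 CPM with a median of 29.8, and Irf9 (chromosome 14, 55603571 to 55610030) from 11.1 to 57.3 CPM with a median of 20.3. Irf7, the factor that amplifies interferon production, ran from 2.95 to 81.9 CPM with a median of 10.6. The 95th to 5th percentile ratio was 1.94 for Stat2, 2.19 for Irf9 and 3.76 for Irf7, so Irf7 spread the most of the 3.

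The sensors split by spread. Ddx58 (RIG-I) and Ifih1 (MDA5), helicases that detect viral RNA, had 95th to 5th percentile ratios of 1.957 and 1.862. Zbp1, a sensor of Z-form nucleic acid, had a ratio of 6.70 and reached 38.6 CPM against a median of 2.73. Dhx58 (LGP2), which regulates both helicases, lay between them with a ratio of 2.67.

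The IFIT proteins bind foreign RNA ends. Ifit1 ran from 1.02 to 40.1 CPM (median 3.595), Ifit3 from 1.49 to 73.6 CPM (median 8.19) and Ifit2 from 5.71 to 40.04 CPM (median 14.5). Ifit2 spread the least of the 3. Counts of Ifit3 are uncertain because the near-identical copy Ifit3b lies 19.2 kb away, and the division of shared reads could move counts between them.

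In the OAS family, the 95th to 5th percentile ratio was 16.8 for Oas3, 8.83 for Oasl1, 8.18 for Oas1a, 7.75 for Oas2 and 4.99 for Oasl2. Eif2ak2 had a ratio of 1.67. The ubiquitin-like modifier Isg15 ran from 0.197 to 11.9 CPM (median 1.36), and Usp18, the protease that removes it and that also silences the receptor, from 0.668 to 23.1 CPM (median 2.26). Herc6, a ligase for Isg15 in mice, ran from 9.76 to 85.7 CPM (median 17.9). 

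The other virus inhibitors were Bst2 (tetherin, which holds budding virions), Samd9l, Rsad2 (viperin) and Cmpk2, a mitochondrial nucleotide kinase. Their median values were 15.8, 60.8, 6.72 and 8.32 CPM. Parp9, Parp12, Parp14 and the ubiquitin ligase Dtx3l had medians of 47.2, 26.3, 68.5 and 45.4 CPM and percentile ratios between 1.60 and 2.13. Sp100, a nuclear body protein, had a median of 48.7 CPM, Trim30a 18.7, Ifi35 17.9, Xaf1 19.5, Rtp4 5.62 and Ifi44 2.62 CPM.

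The members varied together. Over all pairs of members, the median Pearson's r of log2 CPM across mice was 0.522, and 96.4% of the pairs were above 0. Over all pairs of the 18380 genes the median r was -0.001, with a 5th to 95th percentile range of -0.375 to 0.388. These pairs share libraries, so they are a description. The first principal component of the z-scored members took 53.6% of their variance and the second 8.1%.

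Both ISGF3 genes among the members were near the top of this pattern. The 5 members with the highest median r with the others were Stat2 (0.652), Ifit1 (0.648), Rtp4 (0.646), Irf9 (0.634) and Usp18 (0.628). The highest pair was Ifit1 with Usp18 (r = 0.862), then Stat2 with Irf9 (0.851) and Ifit1 with Rtp4 (0.847). The Stat2 and Irf9 pair held an r between 0.835 and 0.889 within the 5 blocks of library numbers.

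**Figure D2:**
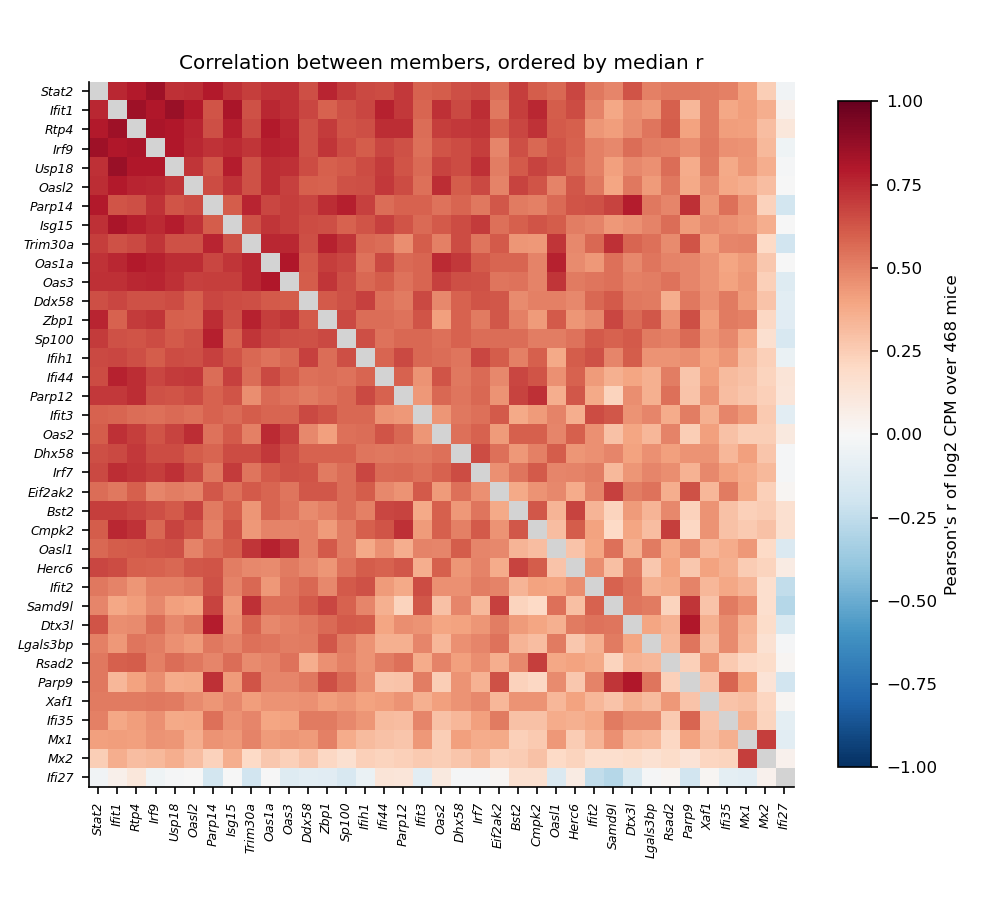
Pearson's r of log2 CPM over all mice for each pair of members (colour; diagonal grey), both axes ordered from the highest to the lowest median r. Stat2, Ifit1 and Rtp4 are at the upper left, Ifi27 is the pale bottom row, and Mx1 with Mx2 forms a dark pair at the lower right.

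An interferon score, the mean of the z-scored log2 CPM of the 37 members, ran from -1.66 to 3.64 with a median of -0.12 and an SD of 0.71. The upper tail was the longer one, with 9 libraries above 2 and none below -2. Mouse DO487 had the highest score (3.64) and held the highest value of 20 of the 37 members. Its Ifit1 was 40.1 CPM, its Rtp4 68.2 CPM and its Usp18 23.1 CPM, each the highest of any mouse. DO098 was second (2.79) and had the highest Irf7 (81.9 CPM), Ifit2 (40.04 CPM) and Oasl2 (110.1 CPM).

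DO337, the third with a score of 2.59, differed in which members were high. It held the highest value of 7 members, among them Stat2 (127.7 CPM), Parp14 (254.3 CPM), Dtx3l (128.6 CPM), Herc6 (85.7 CPM) and Zbp1 (38.6 CPM). Its Usp18 was 3.54 CPM and its Isg15 3.24 CPM, against 23.1 and 11.9 CPM in DO487. It ranked first for the score of 15 GTPases induced by interferon gamma (4.77), against 2.09 in DO487. At the low end, DO116 (-1.66) and DO149 (-1.56) had 3 and 2 members above the median. Without the 3 highest libraries, the median r over pairs was 0.492.

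Some members lie near each other in the genome. There were 13 pairs of members within 1 Mb, and r ran from 0.333 (Dhx58 and Ifi35, 744 kb apart) to 0.801 (Oas1a and Oas3). The median r was 0.689 over these pairs and 0.519 over all other pairs of members, which is a description with no test. With the mean of all other members removed, the medians were 0.390 and 0.023, and the neighbouring pairs separated. Parp9 with Dtx3l kept an r of 0.686, Mx1 with Mx2 0.641, Parp14 with Dtx3l 0.578 and Rsad2 with Cmpk2 0.492. Ifit1 with Ifit3 fell to -0.068, Ifit1 with Ifit2 to -0.138, Oasl1 with Oasl2 to -0.117, and Dhx58 with Ifi35 to -0.141. Parp9 and Dtx3l overlap on opposite strands, and any use of strand in the counting is not given in the sources used here, so reads in the overlap cannot be told apart. Leaving out the 2 libraries farthest from the median kept r between 0.298 and 0.792 over the 13 pairs, and within blocks of library numbers it ran from 0.16 for Dhx58 and Ifi35 to 0.829 for Mx1 and Mx2.

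The 6 members below had the lowest median r with the others, namely Ifi27 (-0.011), Mx2 (0.238), Mx1 (0.389), Ifi35 (0.402), Xaf1 (0.426) and Parp9 (0.454). Ifi27 (chromosome 12, 103434211 to 103440239) ran from 21.7 to 605.3 CPM with a median of 211.5 CPM. Its r was below 0 with 24 of the 36 other members, lowest with Samd9l (-0.289) and highest with Bst2 (0.164). In DO487, the mouse with the highest score, Ifi27 was 310.95 CPM. In the 3 mice with the lowest scores, it was 217.6 (DO116), 451.97 (DO149) and 156.3 CPM (DO180), on both sides of the median.

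The genes most like Ifi27 were mitochondrial. They were Ndufb3, a subunit of complex I (r = 0.675, rho = 0.731), Idh3a, a subunit of isocitrate dehydrogenase (r = 0.651, rho = 0.709), and Sdhc of complex II (r = 0.650, rho = 0.697). With the score of the other members removed, the same 3 genes came first, with r of 0.667, 0.640 and 0.640. They were picked as extremes among 18343 genes, so the values are a description and carry no test. The r with Ndufb3 was 0.455 to 0.815 within the 5 blocks of library numbers, 0.488 in the libraries with Y chromosome counts (51.5% of all) and 0.635 in those without (48.5%). The related gene Ifi27l2a, 1.93 kb from Ifi27, had an r of 0.518 with it (rho 0.326) and of 0.026 with the interferon score. Its r with Ifi27 was 0.448 without the 2 libraries farthest from the median of Ifi27 and 0.274 to 0.692 within blocks of library numbers.

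Mx1 (chromosome 16, 97447035 to 97462907) and Mx2 (chromosome 16, 97535308 to 97560900) each had their highest r among the members with the other. Mx2 lay further from the rest, with a median r of 0.238 against 0.389 for Mx1. Mx2 ran from 0.307 to 60.1 CPM with a median of 2.396 CPM, and its values had 2 humps. A pair of normal components centred at log2 CPM 0.46 and 3.03, with 53% of the mice in the lower one, improved the Bayesian information criterion by 112.2 over 1 component, more than for any other member. Between log2 CPM 1 and 2 lay 13.9% of the libraries, against 34.6% from 0 to 1 and 17.9% from 2 to 3. Mx1 ran from 0.0962 to 17.6 CPM with a median of 1.725 CPM, and 2 components did not improve its criterion (a change of -9.7).

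The pair had an r of 0.689 (rho 0.668), while the highest r outside the pair was 0.504 for Mx1 (with Zbp1) and 0.367 for Mx2 (with Isg15). In DO368, the mouse with the highest Mx2 (60.1 CPM), Mx1 was 15.3 CPM. In DO337, which had one of the 3 highest scores, Mx2 was below its median at 1.70 CPM and Mx1 above its median at 3.55 CPM. The gene most like Mx2 was Bace2, a protease gene 92.4 kb from Mx2 and 4.1 kb from Mx1, with an r of 0.593 (rho 0.568), and 0.596 after the score of the other members was removed. Bace2 was also the gene most like Mx1 after that removal (r = 0.484). The next genes like Mx2 by level were Oas1b (0.315) and Adar (0.288), and for Mx1 Phf11b (0.501) and Adar (0.474) came before Bace2 (0.468). Within blocks of library numbers, the r of Mx2 with Bace2 was 0.469 to 0.686. With the score removed, Psmg1 (-0.341) and Dnajc28 (-0.301) followed for Mx1, and Kcnj15 (-0.292) and Sh3bgr (0.260) for Mx2, all on chromosome 16. Genotypes were not analysed here.

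**Figure D3:**
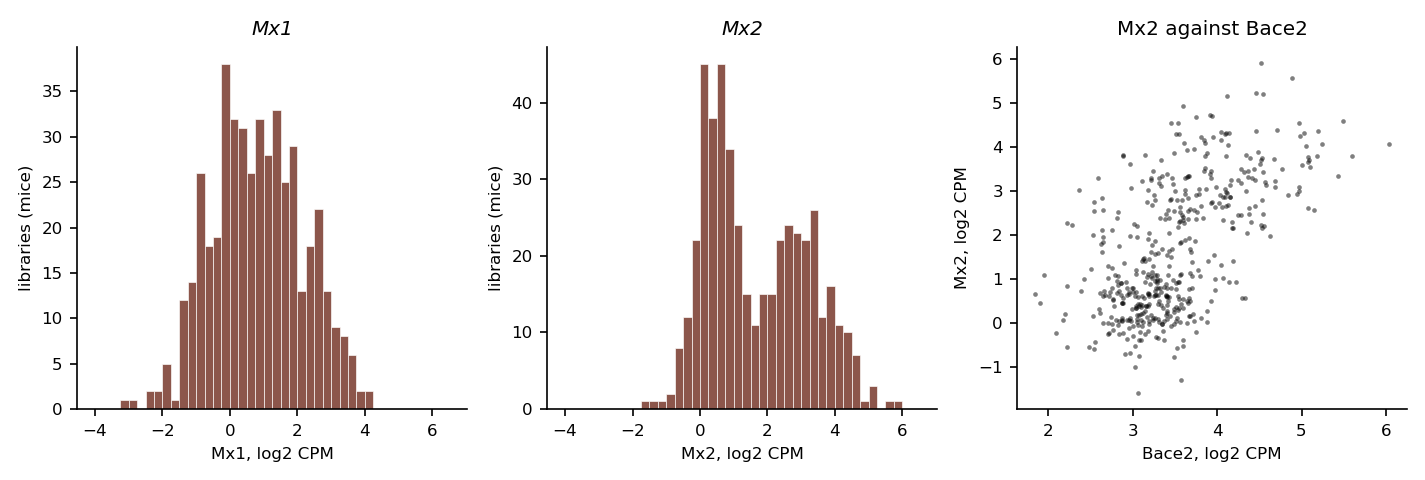
Histograms of log2 CPM of Mx1 and Mx2 over all mice, and log2 CPM of Mx2 against that of the neighbouring gene Bace2, 1 point per mouse. Mx2 has a hump below and a hump above log2 CPM 2 and rises with Bace2 (r = 0.593).

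Ifi35 (chromosome 11, 101448407 to 101458698) ran from 10.6 to 38.6 CPM with a median of 17.9 CPM. By level it was most like Ly6e (r = 0.590), Lgals9 (0.569) and Psmb10 (0.527), all 3 genes that interferons also induce. With the score of the other members removed, the nearest were Gosr2 (0.513) and Rpl27 (-0.503), 2220 kb and 2.88 kb away on chromosome 11, and Dda1 on chromosome 8 (0.472). Rpl27, a protein of the large ribosomal subunit, thus tended to be high where Ifi35 was low for its score, more weakly by rank (rho -0.359).

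Xaf1 (chromosome 11, 72301629 to 72313733), an antagonist of the apoptosis inhibitor XIAP, ran from 6.52 to 84.97 CPM with a median of 19.5 CPM. By level its nearest genes were the interferon-induced Phf11d (0.492), Irgm1 (0.472) and Gbp3 (0.471). With the score removed they were Rnasek (-0.387), Kctd11 (-0.378) and Rnf167 (0.364), each within 2420 kb of it on chromosome 11. 

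Parp9 (chromosome 16, 35938470 to 35972605), which acts with Dtx3l as a ubiquitin ligase, ran from 24.8 to 118.9 CPM with a median of 47.15 CPM. Its nearest genes by level were Tapbp (0.679), Lgals9 (0.676) and B2m (0.673), of which Tapbp and B2m serve antigen presentation by class I molecules. With the score removed, Stim2 (0.675), Pea15a (0.673) and Lpgat1 (0.672) came first, none on its chromosome.

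Neighbouring genes appeared for other members too. By level, the gene most like a member lay within 4 Mb of it for 3 of the 37 (Ifit3, Mx2 and Sp100). With the score of the other members removed this held for 11 of the 37, namely Ifit3, Oas2, Oasl2, Irf7, Mx1, Mx2, Ifi35, Xaf1, Trim30a, Lgals3bp and Sp100. On average 0.49% of the genes searched lay that near. Sp110, 51.2 kb from Sp100, had the highest of these by level (r = 0.838), and P2ry6, 3430 kb from Trim30a, had an r of 0.680 with it after removal of the score. Irf7 overlaps Phrf1 (0.496 after removal), where reads can be shared.

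Outside the members, the 5 genes of at least 10 CPM with the highest r with the score were Phf11d (0.859), Rnf213 (0.779), the RNA editing enzyme Adar (0.773), the membrane protein Ifitm3 that blocks virus entry (0.732) and the GTPase Irgm1 (0.719). The median over the 9486 genes searched was -0.035. The score of 34 other interferon-induced genes had an r of 0.898 with that of the members (0.852 to 0.919 within blocks of library numbers). The 15 GTPases induced by interferon gamma had an r of 0.694, the 7 brakes 0.557, the 10 receptor and signal genes 0.521 and the 11 sensors and adaptors 0.486.

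Cell type markers moved with the score to different degrees. The highest r was that of the 6 natural killer (NK) cell markers (0.519, rho 0.504, and 0.489 to 0.566 within blocks of library numbers), ahead of 9 T cell markers (0.376), 10 macrophage markers (0.352), 6 conventional dendritic cell markers (0.341) and 6 progenitor markers (0.303). The 4 neutrophil markers had 0.260, the 6 B cell markers 0.257, the 4 plasmacytoid dendritic cell markers past the filter 0.224, the 6 mesothelial markers 0.138, the 6 endothelial markers 0.066 and the 8 adipocyte markers -0.148. Single markers overlapped between lists. Their r with the score ran from 0.144 (Klra8) to 0.479 (Gzma) for NK cells and from -0.022 (Mertk) to 0.510 (Fcgr1) for macrophages. For conventional dendritic cells it ran from -0.134 (Zbtb46) to 0.404 (Clec9a). NK markers were scarce, summing to 0.654 to 105.2 CPM with a median of 3.965 CPM. The defining Ncr1 was at 0 in no library and Klra8 at 0 in 17 libraries, and Klrb1c alone reached 102.3 CPM in the highest. All 6 rose with Adgre1, as did all 9 T cell markers and all 6 B cell markers, where 34.4% of all genes rose. With Adgre1 removed, the r of the NK score with the interferon score was 0.468. That of the macrophage score was 0.158, but Adgre1 is 1 of its 10 markers and 8 of the other 9 rose with it, so part of this fall is built in and the values are not comparable. In bulk tissue, more cells of a type and more RNA per cell cannot be told apart. The part of these cell types in the variation of the members was not tested.

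The relation to Adgre1 was positive for most members. Adgre1 ran from 10.7 to 656.5 CPM with a median of 47.5 CPM. In edgeR's quasi-likelihood test of the slope over all mice, adjusted by Benjamini-Hochberg over 18379 genes, 31 of the 37 members passed an adjusted p of 0.05, where 77.4% of all genes did. Adgre1 thus moved with most of the transcriptome. Of the members, 29 rose with Adgre1 against 34.4% of all genes, and 2 fell against 43%. The median slope, in log2 CPM per doubling of Adgre1, was 0.122 over the members and -0.017 over all genes.

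The largest slopes were those of Oasl1 (0.65 ± 0.04 SE, adjusted p = 1.82e-50), Oas3 (0.63 ± 0.06, adjusted p = 5.54e-23), Zbp1 (0.52, with an SE of 0.04 and an adjusted p of 1.79e-27), Oas1a (0.52 ± 0.04, adjusted p = 1.96e-29) and Mx1 (0.41 ± 0.07, adjusted p = 4.92e-08). By role, 6 of 6 members of the OAS and PKR group, 3 of 3 transcription factors, 3 of 3 IFIT genes, 3 of 4 sensors, 3 of 4 of the PARP group, 2 of 3 of the ISG15 pathway, 1 of 2 Mx genes, 1 of 4 other virus inhibitors and 7 of 8 other induced proteins rose. With limma, Ifit1, Oas2, Irf7, Ifi44 and Xaf1 did not pass (adjusted p of 0.0836, 0.125, 0.33, 0.173 and 0.068). Stat2 and Irf9 rose by 0.10 and 0.11 per doubling. Trim30a (0.31), Ifit3 (0.29), Samd9l (0.26) and Lgals3bp (0.24) followed the first 5.

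Ifi27 fell, with a slope of -0.23 ± 0.03 SE (adjusted p = 1.8e-13), and so did Cmpk2, with -0.07 ± 0.02 (adjusted p = 0.00872). Cmpk2 did not keep its direction. With Xist and Y chromosome genes in the model its slope was 0.04 and Ifi27's was -0.088. In the libraries with Y counts the r of Ifi27 with Adgre1 was 0.058, and in those without it was -0.363. The 6 that did not pass were Mx2 (0.02, SE 0.09), Rsad2 (0.07, SE 0.04), Herc6 (0.003, SE 0.02), Bst2 (0.01, SE 0.03), Parp12 (-0.0003, SE 0.01) and Ifih1 (0.02, SE 0.02). A slope that did not pass does not show that a member was unrelated. With Xist and Y chromosome genes in the model, Rsad2 (0.201), Bst2 (0.141), Herc6 (0.062) and Parp12 (0.044) passed, and Rsad2 also passed with DESeq2 and limma.

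**Figure D4:**
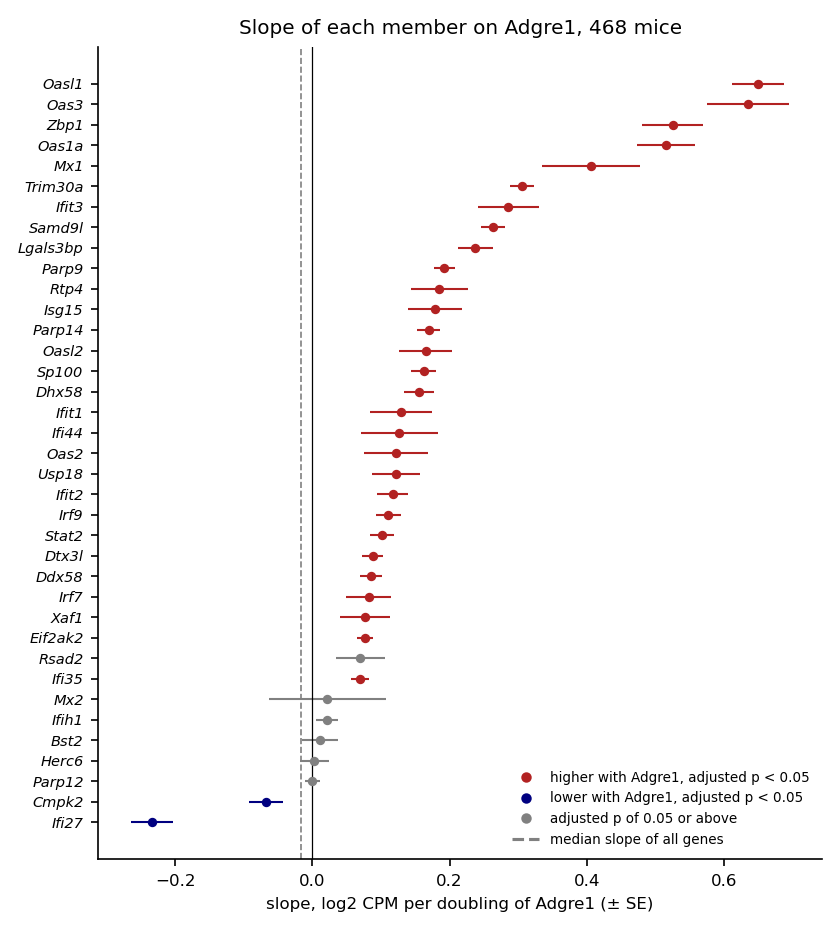
Slope of log2 CPM of each member per doubling of Adgre1 over all mice (points; bars: SE), red where higher and blue where lower with Adgre1 at an adjusted p under 0.05, grey otherwise; the dashed line is the median slope of all genes. Oasl1 and Oas3 lie at the right end, and Ifi27 and Cmpk2 are the 2 to the left of 0 that passed.

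The interferon score had an r of 0.319 with Adgre1 (rho 0.353, over all mice). It was 0.319 without the 2 libraries farthest from the median of Adgre1, 0.228 to 0.483 within the 5 blocks of library numbers and 0.096 to 0.429 within the 5 blocks of mouse numbers. In libraries with Y counts it was 0.309 and in those without 0.447. The 3 mice with the highest scores had 70.2, 115.98 and 38.7 CPM of Adgre1, and the third lay below the median of Adgre1.

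The rest of the pathway was called by list. Of the 10 receptor and signal genes, 7 rose with Adgre1 and 1 fell, where 34.4% of all genes rose and 43% fell. Jak1 (248.5 CPM on average) rose by 0.14 and Ifnar1 (63.7 CPM) by 0.20 per doubling, and the largest slopes were those of Irf5 (0.80) and Irf8 (0.68), factors of myeloid cells. Irf3 fell by 0.12.

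Of the 11 sensors and adaptors, 10 rose and 1 fell, where 34.4% of all genes rose and 43% fell. The endosomal receptors Tlr7 (0.68) and Tlr9 (0.62) and the kinase Ikbke (0.40) had the largest slopes, Trim25 (76.5 CPM) rose by 0.14 and Tbk1 (39.01 CPM) by 0.04, and Mavs (50.97 CPM), the adaptor of RIG-I and MDA5, fell by 0.22. Of the 7 brakes, 5 rose and 1 fell, led by the phosphatase Ptpn6 (0.73), Socs3 (0.36) and the nuclease Trex1 (0.26). Samhd1 (111.7 CPM) rose by 0.26 and Adar (34.8 CPM) by 0.13.

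Of the 34 other interferon-induced genes tested, 23 rose and 5 fell, where 34.4% of all genes rose and 43% fell. Slfn2 (0.78), Slfn8 (0.45) and Epsti1 (0.43) had the largest slopes, Ifitm2 (median 111.7 CPM) rose by 0.10, and Ifi27l2a (427.9 CPM) fell by 0.25. Slfn5 (177.9 CPM) did not pass, with a slope of -0.0021 (SE 0.02). Of the 15 GTPases induced by interferon gamma, 2 rose and 1 fell, both below these shares of all genes. Gbp2 (83.8 CPM) rose by 0.10, Gbp9 by 0.09 and Tgtp1 fell by 0.16, while Gbp6 (49.5 CPM) and Gbp7 (45.2 CPM) did not pass, with slopes of 0.06 and -0.06. The median slope of the GTPases was 0.016, against 0.122 for the members. The difference between these lists was not tested.

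Few members had a slope on mouse number that passed. In the slope test over 18380 genes, 1 of 37 members passed (2.7%), where 23.3% of all genes did, and the median slope per 100 mouse numbers was 0.001 over the members and -0.001 over all genes. The one was Ifi35, with a slope of 0.03 ± 0.01 SE log2 CPM per 100 mouse numbers (adjusted p = 0.00491). Its mean was 17.98 ± 3.39 CPM (SD, n = 93) in the block of lowest mouse numbers and 19.45 ± 3.77 CPM (SD, n = 94) in that of the highest, so the shift was smaller than the SD within either block. With an unadjusted p under 0.05, 5 of 37 members passed, where 36.1% of all genes did.

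A test of any difference among 5 blocks of mouse numbers called 6 of 37 members, where 17.4% of all genes were called. They were Ifi35 (adjusted p = 0.00776), Ifit2 (0.0271), Herc6 (0.039), Ifit3 (0.0396), Zbp1 (0.047) and Oas1a (0.0493) in edgeR's quasi-likelihood test. At an unadjusted p under 0.05 in the same block test, 18 of 37 members passed, where 31.4% of all genes did. Whether the members depart from these shares was not tested. Oas1a had block means of 5.19, 4.37, 3.999, 4.37 and 5.39 CPM in the order of the numbers, lowest in the middle block, and SDs of 2.62 to 5.45 CPM. Ifit3 had its lowest mean, 8.18 CPM, in the same block. 

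The score had an r of 0.011 with mouse number (rho 0.012; 95% interval -0.08 to 0.102 by Fisher's transformation), and -0.046 to 0.096 within blocks of library numbers. Its means were 0.10, -0.04, -0.16, 0.02 and 0.08 in the 5 blocks, with SDs of 0.61 to 0.83. In the pathway lists, 2 of 10 receptor and signal genes rose with mouse number (Irf8 by 0.08 and Irf5 by 0.08 per 100), 3 of 11 sensors and adaptors rose (Tlr3, Ticam1, Myd88) and 1 fell (Trim25), and 2 of 7 brakes rose (Socs3 by 0.10, Trex1 by 0.04). Of the 34 other interferon-induced genes, 2 rose (Slfn2, Tdrd7) and 3 fell (Helz2, Uba7, Slfn5), and 0 of the 15 GTPases passed in edgeR's test. The same test called 23.3% of all genes in either direction, and whether any list departs from that share was not tested.

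**Figure D5:**
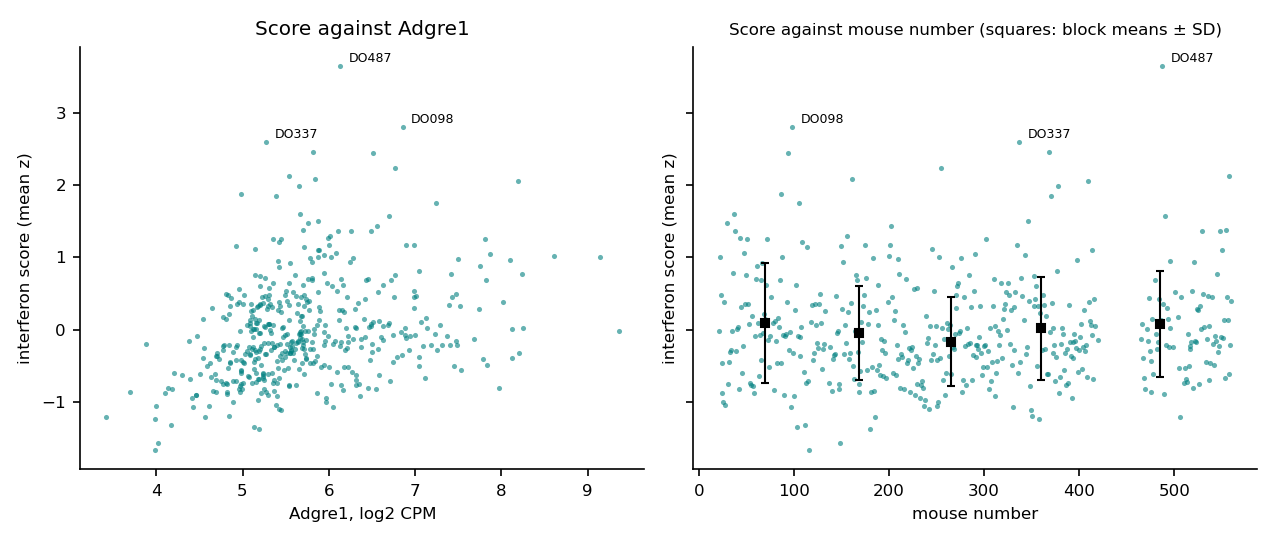
Interferon score (mean z of 37 members) of each mouse against log2 CPM of Adgre1 and against mouse number, with the 3 highest mice named; squares and bars are the mean ± SD of 5 blocks of mouse numbers. The score has an r of 0.319 with Adgre1 and of 0.011 with mouse number.

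Depth and RNA measures were set beside the score. Its r was -0.026 with the log10 total count, 0.013 with the share of counts in the ribosomal gene CT010467.1 (0.269% to 28.45% of a library) and -0.226 with the share in mitochondrially encoded genes (2.65% to 20.6%). The part of the mitochondrial share in the variation of the score was not tested.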

How the data were processed

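RNA of 468 adipose samples was sequenced as polyadenylated libraries. The authors aligned both ends of each pair as single reads to a transcriptome of all founder strains and estimated abundance by expectation maximization (EMASE, run by GBRS, with versions not given in the sources used here). Of the tables, the first one the authors deposited holds expected counts per gene, of which 66.8% were whole within 1e-06. The second deposited table holds log2-scale values after variance stabilization (VST) with DESeq2 and served as an alternative. Per the methods, a mixed model removed batch effects in the study, and whether the deposited VST values include this was not tested. Coordinates are those deposited (GRCm38), equal to GENCODE M21 for 36 of 37 members, with Isg15 the exception, and exon lengths are from GENCODE M21.

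A gene was kept when 50% or more of the libraries had 10 or more counts for it. CPM used total counts times TMM factors (0.578 to 1.36), and log2 CPM a prior count of 2. Slopes on mouse number (per 100) and on log2 CPM of Adgre1 came from edgeR 4.0.16 (glmQLFit, glmQLFTest) on counts rounded to whole numbers, in R 4.3.3, with Benjamini-Hochberg adjustment over all genes. Alternatives used limma 3.58.1, DESeq2 1.42.0, other filters, sizes and covariates. On simulated counts of 18380 genes with 200 changed, the mouse number fit recovered 89% of slopes of 0.1 and 100% of 0.3. Of its calls, 4.5% were on unchanged genes. Genes were drawn independently, with no batch or sex, so these rates need not hold in the data. The Adgre1 fit was not simulated. Two-component fits used scikit-learn 1.9.0.

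Members, lists and rules were chosen with earlier results of these data known. Described in full are the 5 members of highest mean CPM, those of lowest (6) and highest (5) median r, the largest slopes, the 3 genes most like each of the 6, and in each list the 3 of highest mean CPM and the 3 of largest slope, except 1 gene that is not reported here. No member had 5% of libraries more than 3 log2 units below its median. Blocks are 5 runs of consecutive numbers, used standing for unnamed batches. No sample was left out. Shared reads make counts of near-identical and overlapping genes uncertain, and 15 members overlap another annotated gene.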

Additional observations from a re-analysis of the deposited data

How the results depend on the processing

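The number of members called on mouse number was 1, and 2 with DESeq2, limma, counts capped at the 99th percentile (Ifi35 and Cmpk2 in each) or Xist and Y chromosome genes in the model (Ifi35 and Ifit2), 3 without the 3 highest libraries DO487, DO098 and DO337 (Ifi35, Cmpk2 and Bst2, an alternative chosen after seeing the data) and 6 with 5 blocks of mouse numbers. The number called on Adgre1, 31, ran from 27 (limma) to 34 (Xist and Y genes in the model, with Bst2, Rsad2, Herc6 and Parp12 added), and 28 without the 3 highest libraries, where Irf7, Ifi44 and Xaf1 no longer passed. In the main fits, 23.3% of all genes were called on mouse number and 77.4% on Adgre1, and 17.4% with 5 blocks. The share under each other alternative is not given here, so changes in these counts are not read as particular to the members. With Xist and Y genes in the model the slope of Cmpk2 on Adgre1 turned to 0.044 (adjusted p = 0.111) and that of Parp12 to 0.044 (adjusted p = 0.000326); the cause was not tested. The median r over pairs (0.522) was 0.587 in libraries without Y chromosome counts and 0.591 in the second block of library numbers. The r of score and Adgre1 (0.319) was 0.447 in libraries without Y counts, 0.483 and 0.228 in the first and the third block of library numbers, and 0.403, 0.429 and 0.096 in the first, the third and the fourth block of mouse numbers. Under the other alternatives run, these values stayed within the 95% interval of the main r, those of the score with mouse number included. That interval is for a single r over all mice. For the median over pairs and for values within blocks it is a yardstick and no test of stability. A looser ISRE (GAAANNGAA) was in 14 of 27 members and 8.56% of windows. No paired analysis was possible because the libraries form 1 group. Low counts limit Oas3, Isg15 and Oasl1 most.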
